A study of Mus musculus with 8 samples.

Results

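The genes described here encode the mitochondrial carriers, the SLC25 family of the inner mitochondrial membrane together with the uncoupling proteins. Members were the protein-coding genes of the count table whose GENCODE M21 symbol was Slc25a followed by a number, or Ucp1, Ucp2 or Ucp3, and 50 of the 54532 genes in the table met this rule. Of these, 40 had at least 20 counts summed over the libraries and are described below, and 34 passed the filter on low counts and were tested. The values come from 3′ mRNA-seq of intestinal epithelial cells of mice at lactation day 5, with 4 WT and 4 Rank-knockout samples, 1 library each. The product of Rank (gene symbol Tnfrsf11a) is a receptor that activates NF-κB in response to the hormone-regulated ligand RANKL. The methods of the study describe a floxed Rank allele on a C57BL/6J background, removed with a Cre driven by the Villin1 promoter, which is active along the intestinal epithelium. The methods call for littermate, sex-matched mice. Whether the WT mice carried the Cre or the floxed allele, and the age of each mouse, are not given in the sources used here. The comparison asks how loss of Rank in the epithelium changes the expression of these carriers in lactating mice.

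Carriers of this family move metabolites across the inner mitochondrial membrane, which small ions and charged metabolites do not cross unaided, and so link the mitochondrial matrix to the cytosol. They bring in phosphate and ADP for the making of ATP, exchange the acids of the citric acid cycle and of amino acid breakdown, import fatty acids as acylcarnitines, and supply the matrix with nucleotides, NAD, coenzyme A, folate, glutathione and iron. In the small intestine, absorptive enterocytes use mitochondrial oxidation of glutamine and fatty acids to drive nutrient uptake, and they make citrulline from glutamine in a route that crosses the inner membrane at several steps.

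Library totals ran from 1530781 to 4335653 counts. Epithelial markers differed between the genotypes. All 12 villus enterocyte markers were lower in Rank-knockout, with a summed level of 22090 to 31240 CPM (counts per 1000000 of the scaled library size) in the WT libraries and 10620 to 14570 CPM in those of Rank-knockout, and all 12 markers of replicating crypt cells were higher, with 391 to 622 CPM against 896 to 1579 CPM. Of 6 crypt base and 6 Paneth markers, 3 each were higher, and of 7 goblet markers 1 was higher and 4 were lower. No marker of T cells, enteroendocrine cells or tuft cells was called, 1 of 2 tested plasma cell markers was lower (summed 54.6 to 153 CPM against 9.89 to 53.3 CPM), and markers of myeloid, stromal, fat and red blood cells summed to at most 12.1 CPM in any library, with Adgre1, Adipoq and Lep at 0 counts. The 4 skeletal muscle markers, with Ckm and Myh4 at 0 counts, summed to 13 to 74.4 CPM in WT against 10.5 to 31.5 CPM, and the 4 exocrine pancreas markers to 36.2 to 62.1 CPM and 29.7 to 49.9 CPM. WT replicate 2 stood apart from the other libraries of its genotype: 2.20% of 7982 genes lay below 0.5 times the lowest other WT library, against 0.0376% to 0.689% in each other library, and Slc25a5 and Slc25a22 were among them. The part of cell composition in the carrier values below was not tested.

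Because the libraries read the 3′ end of each transcript, counts were not divided by length, and levels of carriers are set side by side in CPM. A count is a read and not a molecule, since no correction for PCR copies is described, so the order of levels is one of reads. Library sizes were scaled with trimmed means of M values (TMM) for CPM. The 50 carriers together summed to 4728, 5303, 5231 and 5119 CPM in WT replicates 1 to 4, a mean of 5095 ± 256 (SD, n = 4). In Rank-knockout replicates 1 to 4 they summed to 3407, 3973, 3829 and 4181 CPM, a mean of 3848 ± 327 (SD, n = 4), so that every Rank-knockout library lay below every WT library. The same held for the share of the raw library total, which was 0.451% to 0.483% in WT and 0.372% to 0.441% in Rank-knockout. TMM factors ran from 0.917 to 0.961 in WT and from 1.06 to 1.10 in Rank-knockout, so part of the difference in CPM came from scaling. These sums are a description without a test. In bulk RNA of this kind, fewer cells of a type and less RNA per cell cannot be told apart.

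A few carriers held most of this RNA. Slc25a3, the phosphate carrier, was the most abundant, with 21.5% of the summed carrier CPM in WT and 21.1% in Rank-knockout. Slc25a51, which carries NAD into the matrix, followed with 14.7% and 12.1%. By the mean CPM over all 8 libraries, Slc25a37 (mitoferrin 1), Slc25a5 (an ADP/ATP carrier) and Slc25a15 (the ornithine carrier) came next, although in WT Slc25a45 (323 ± 50.6 CPM) had a higher mean than Slc25a5 and Slc25a15, and in Rank-knockout Slc25a39 and Slc25a11 had higher means than Slc25a15. The 5 together held 57.4% in WT and 54.4% in Rank-knockout. Their summed level was 2925 ± 151 CPM in the WT libraries and 2093 ± 242 CPM in those of Rank-knockout (SD, n = 4 each). That of the other 45 went from 2170 ± 153 to 1754 ± 92.3 CPM (SD, n = 4 each), so the lower sum did not lie in those 5 carriers alone. At the other end, 5 carriers had no count in any library: Ucp1 and Ucp3, the uncoupling proteins of brown fat and muscle, Slc25a18, a glutamate carrier, Slc25a41, an ATP-Mg/phosphate carrier, and Slc25a54. A total of 0 counts allows up to 3 counts over the libraries, from counting error only. Another 5 had 1 to 19 counts over all libraries: Slc25a43 had 17, Slc25a2 and Slc25a48 8 each, and Slc25a21, the oxoadipate carrier, and Slc25a31, the ADP/ATP carrier of the testis, 1 each.

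Of the 34 tested carriers, 7 were lower and 1 was higher in Rank-knockout at an adjusted p under 0.05 (edgeR quasi-likelihood F-test, Benjamini-Hochberg over 9855 genes). The lower ones were Slc25a36, Slc25a45, Slc25a44, Slc25a51, Slc25a24, Slc25a3 and Slc25a10, and the higher one was Slc25a32. These are 20.6% and 2.94% of the tested carriers, beside 14.6% lower and 15.8% higher among all genes tested. In either direction 23.5% of carriers were called, beside 30.4% of all genes. The genotypes did not overlap in CPM for 8 carriers (23.5%), beside 28.8% of all genes, 6 of them lower in Rank-knockout and 2 higher, beside 14.3% and 14.4%. DESeq2 called 8 lower and 1 higher, beside 15.1% and 14.2% of the genes it tested. The median log2 fold change of the tested carriers, Rank-knockout minus WT, was -0.14, with 20 values below 0 and 14 above, and that of all genes was 0.02. Scaling moved this balance. With raw library totals, under which the median of all genes rose by 0.199 on the log2 scale, 4 carriers were lower and 3 higher, beside 8.72% and 26.0% of all genes. Without the 50 most abundant genes in the library sizes, 4 were lower and 2 higher, beside 10.3% and 22.0%. The number lower was 4 without Rank-knockout replicate 1 or 3, and the number higher was 0 without WT replicate 3, WT replicate 4 or Rank-knockout replicate 3 and 2 without WT replicate 1 or 2. The carrier median was 0.165 below that of all genes under TMM and 0.164 below it under both other scalings. A change of scaling moves all genes nearly alike, so it could hardly alter this gap. Under the other settings the carrier median lay from 0.0969 (limma-voom) to 0.226 (without WT replicate 1) below that of all genes.

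**Figure D1:**
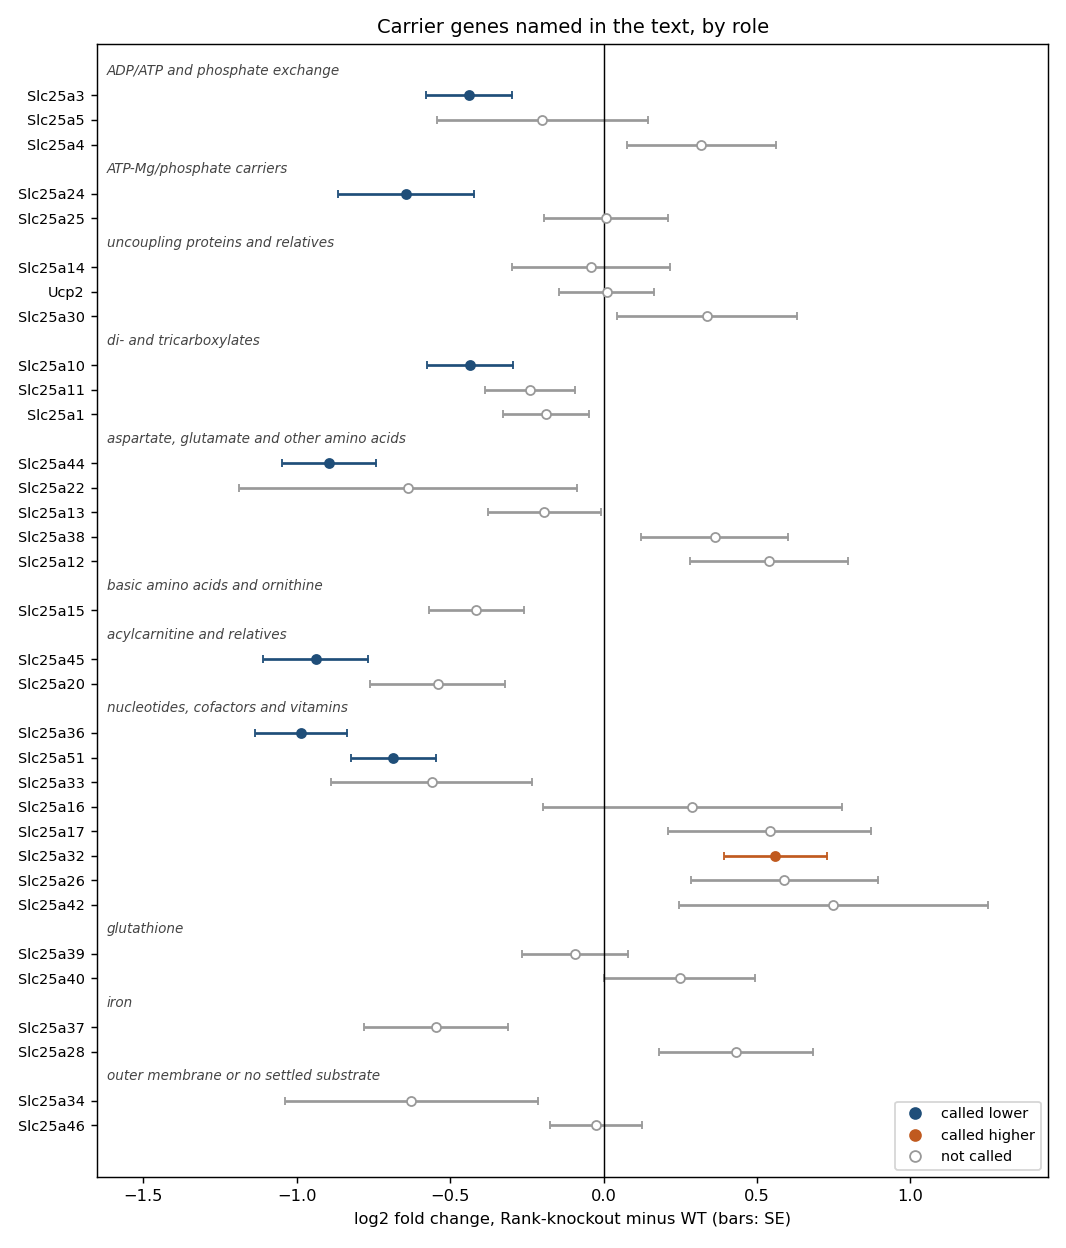
Log2 fold change of the tested carriers named in the text, Rank-knockout minus WT, on the horizontal axis, grouped by role, with bars of 1 standard error (n = 4 libraries per genotype). The 7 filled blue points are called lower, the 1 filled orange point (Slc25a32) is called higher and the 25 open points are not called.

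Most role groups held values of both signs. The nucleotide, cofactor and vitamin group of 9 tested carriers held both the most negative log2 fold change, that of Slc25a36 at -0.99, and the only called rise. Both tested carriers of acylcarnitine and its relatives and all 3 of the di- and tricarboxylates had negative values, with 1 called in each. No uncoupling protein, glutathione or iron carrier was called.

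Promoter windows are shown for 3 of the carriers called lower, the largest change (Slc25a36), the second largest (Slc25a45) and the most abundant carrier (Slc25a3). Each runs from 250 bases before to 50 bases after the start of the gene in RefSeq, on GRCm38.p6, the build of the counts, and is written 5′ to 3′ on the gene's strand. RefSeq gave a window for 39 of the 50 carriers. Capitals mark a match to 1 of 5 motifs searched on both strands: the E-box CACGTG, the NRF1 site (GCGCA and GCGC 1 base apart), the nuclear receptor motif AAGGTCA, the ETS site CCGGAAGT and the HNF4A site CAAAGTCCA. The windows lie at chr9:97110992-97111291 (Slc25a36, minus strand), chr19:5877572-5877871 (Slc25a45, plus strand) and chr10:91123918-91124217 (Slc25a3, minus strand).
Slc25a36: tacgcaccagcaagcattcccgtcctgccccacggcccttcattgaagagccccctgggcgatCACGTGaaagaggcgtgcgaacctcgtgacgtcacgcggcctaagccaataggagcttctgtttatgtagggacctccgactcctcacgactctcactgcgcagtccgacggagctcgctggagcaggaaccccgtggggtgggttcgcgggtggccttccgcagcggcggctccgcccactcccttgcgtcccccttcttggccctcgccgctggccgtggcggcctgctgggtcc
Slc25a45: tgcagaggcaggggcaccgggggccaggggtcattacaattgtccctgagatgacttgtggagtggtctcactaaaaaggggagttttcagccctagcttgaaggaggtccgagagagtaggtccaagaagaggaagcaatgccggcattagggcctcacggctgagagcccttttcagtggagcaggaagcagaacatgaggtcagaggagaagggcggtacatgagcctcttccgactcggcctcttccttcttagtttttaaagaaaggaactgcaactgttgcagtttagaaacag
Slc25a3: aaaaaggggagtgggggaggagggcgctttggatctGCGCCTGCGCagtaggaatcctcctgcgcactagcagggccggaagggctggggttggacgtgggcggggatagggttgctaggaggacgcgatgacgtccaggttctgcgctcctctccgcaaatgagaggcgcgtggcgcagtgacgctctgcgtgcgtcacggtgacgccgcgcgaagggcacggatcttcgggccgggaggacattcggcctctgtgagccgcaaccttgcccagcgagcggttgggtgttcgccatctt
The window of Slc25a36 held an E-box 187 bases before the start and that of Slc25a3 an NRF1 site 214 bases before it, while that of Slc25a45 held none of the 5 motifs. These positions count from the RefSeq start, which lies 116 bases (Slc25a36) and 92 bases (Slc25a3) downstream of the GENCODE start. Among all carriers with a window, 6 (15.4%) held an E-box, beside 10.8% of 7679 windows of tested genes, and 2 (5.13%) held the NRF1 site, beside 11.6%. The carrier windows include untested carriers, such as Slc25a31 (1 count), which held both motifs, while the comparison windows are of tested genes only. The nuclear receptor motif and the ETS site were in 1 carrier window each (2.56%), beside 3.13% and 9.68%, and the HNF4A site was in none, beside 0.495%. Of the 5 carriers called lower that had a window, Slc25a36 alone held an E-box and Slc25a3 alone an NRF1 site, so no motif searched was shared between them. These matches describe letters in a window and are not binding sites.

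Slc25a36 and its relative Slc25a33 exchange pyrimidine nucleotides, which the matrix needs to copy and transcribe mitochondrial DNA. Slc25a36 (ENSMUSG00000032449, chr9:97074961-97111157, minus strand) was at 135, 137, 113 and 162 CPM in WT replicates 1 to 4 and at 60.1, 71.3, 71.9 and 73.8 CPM in Rank-knockout. Every Rank-knockout library was below every WT library and the means were 1.98-fold apart, 137 ± 20.1 against 69.3 ± 6.23 CPM (SD, n = 4 each). This is a log2 fold change of -0.99 ± 0.148 with its SE (edgeR adjusted p = 0.000363). Slc25a33 was much scarcer, at 6.65 ± 1.14 CPM in the WT libraries and 4.34 ± 1.35 CPM in those of Rank-knockout (SD, n = 4 each), and its log2 fold change of -0.56 did not pass the test (95% interval -1.20 to 0.08, edgeR adjusted p = 0.207) and was -0.36 with raw library totals.

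Slc25a51 (ENSMUSG00000045973, chr4:45395923-45408766, minus strand) supplies mitochondria with NAD, the electron carrier of matrix dehydrogenases. Its level was 724, 809, 691 and 766 CPM in WT replicates 1 to 4 against 401, 486, 445 and 529 CPM in Rank-knockout. The lowest WT library was above the highest Rank-knockout library, and this carrier fell 1.61-fold (log2 fold change -0.69 ± 0.139, edgeR adjusted p = 0.00208). In CPM this difference of level was second to that of Slc25a3, from a mean of 748 ± 51.2 to 465 ± 55.0 CPM (SD, n = 4 each).

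Slc25a32 (ENSMUSG00000022299, chr15:39091231-39112716, minus strand), the folate carrier of the inner membrane, also reported to carry flavin, was the 1 carrier that rose. It stood at 66.5, 76.0, 58.0 and 44.6 CPM in WT replicates 1 to 4, and in Rank-knockout replicates 1 to 4 at 84.7, 88.9, 104 and 88.6 CPM. The genotypes did not overlap, and the mean went from 61.3 ± 13.3 to 91.5 ± 8.45 CPM (SD, n = 4 each). The fitted rise was 1.48-fold, a log2 fold change of 0.56 ± 0.168 (edgeR adjusted p = 0.019). The call rested on single libraries: without WT replicate 3, WT replicate 4 or Rank-knockout replicate 3 the log2 fold change was 0.51, 0.41 and 0.50, with edgeR adjusted p = 0.0638, 0.0900 and 0.0622.

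Further vitamin and cofactor carriers did not pass the test. Slc25a26, which imports S-adenosylmethionine, had a log2 fold change of 0.59, the peroxisomal cofactor carrier Slc25a17 0.54, and Slc25a16, linked to coenzyme A, 0.29. Slc25a42, the coenzyme A carrier, had the largest positive value, 0.75 (95% interval -0.24 to 1.74), from few counts. Its WT libraries held 8.90, 1.27, 1.37 and 3.33 CPM, with replicate 1 above every Rank-knockout library (5.52, 3.75, 7.19 and 5.54 CPM). Without WT replicate 1 its log2 fold change was 1.55 and passed the test (edgeR adjusted p = 0.0279), and without WT replicate 2 it was 0.26. The value of Slc25a17 was 0.31 without WT replicate 4 and 0.36 without Rank-knockout replicate 3. The sign for Slc25a16 turned to -0.15 without WT replicate 2, and its value was 0.82 without WT replicate 3.

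**Figure D2:**
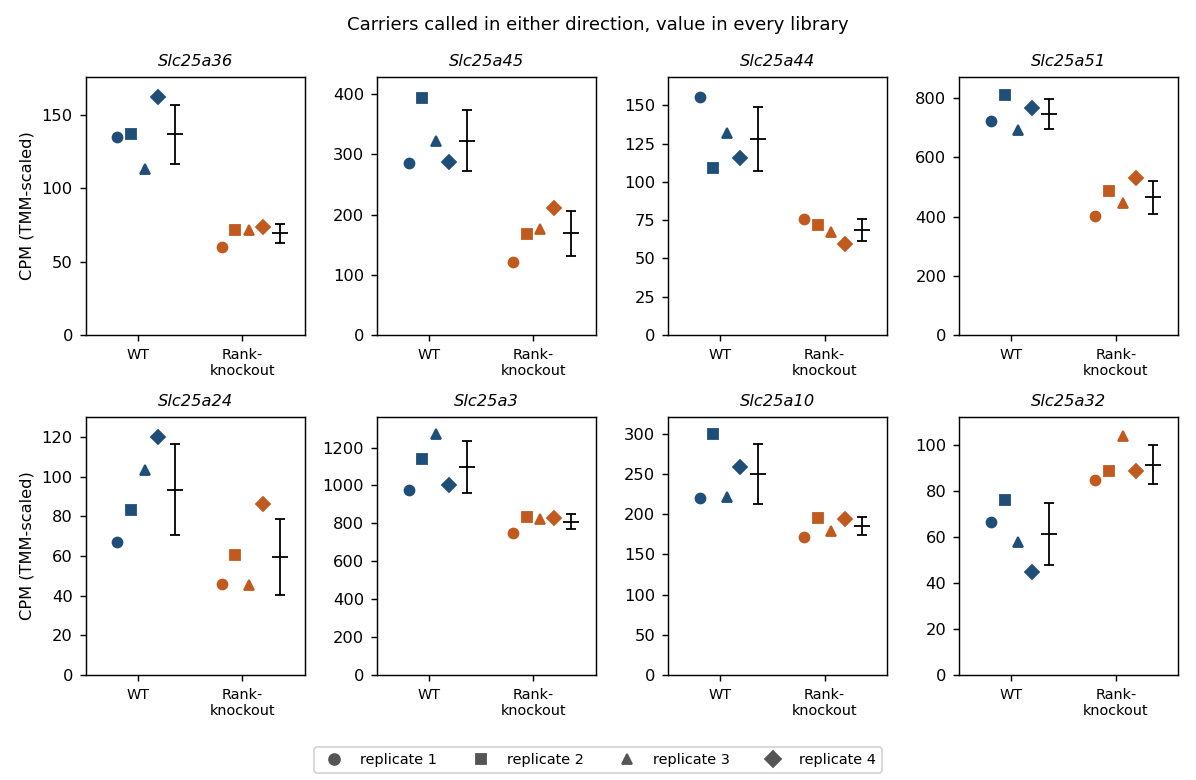
CPM (TMM-scaled, linear axes from 0) of the 8 called carriers in each library, with WT in blue, Rank-knockout in orange, replicates by symbol, and a bar for the mean ± SD (n = 4). The genotypes do not overlap for any of them except Slc25a24, where Rank-knockout replicate 4 (86.2 CPM) lies above WT replicates 1 and 2 (67.1 and 83.4 CPM).

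Slc25a3 (ENSMUSG00000061904, chr10:91116574-91124059, minus strand) brings phosphate into the matrix for ATP synthesis and also carries copper for cytochrome oxidase. It was at 973, 1138, 1270.0 and 1002 CPM in WT replicates 1 to 4 and at 751, 832, 826 and 828 CPM in Rank-knockout. All 4 Rank-knockout libraries were below the lowest WT library, and the level fell 1.35-fold (log2 fold change -0.44 ± 0.14, edgeR adjusted p = 0.0262). This fall stayed negative but was past the threshold only under some settings: the log2 fold change was -0.24 with raw library totals (adjusted p = 0.164), -0.31 without the 50 most abundant genes (adjusted p = 0.0867) and -0.40 with no filter on low counts (edgeR adjusted p = 0.0700). It was also lost without WT replicate 3, Rank-knockout replicate 1, 2 or 3, where the log2 fold change ran from -0.45 to -0.38.

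The ADP/ATP carriers, which exchange the matrix ATP for cytosolic ADP, were not called. Slc25a5, the main form in dividing and epithelial tissues, was at 309.6, 142, 420.0 and 407 CPM in WT replicates 1 to 4, and in Rank-knockout replicates 1 to 4 at 262, 233, 200.5 and 409.9 CPM. The lowest library was WT replicate 2 and the genotypes overlapped over most of their range, with a log2 fold change of -0.20 (95% interval -0.87 to 0.47, edgeR adjusted p = 0.703) and of -0.46 without WT replicate 2 (edgeR adjusted p = 0.122). Without WT replicate 3 it was -0.044, without WT replicate 4 -0.083 and without Rank-knockout replicate 3 -0.075, and with raw library totals -0.0042. Reads of Slc25a5 can be shared with processed copies, of which Slc25a5-ps, a pseudogene left out here, had 1 to 9 counts per library. Slc25a4, the form of heart and muscle, was at 12.9 ± 1.42 CPM in the WT libraries and 16.1 ± 4.58 CPM in those of Rank-knockout (SD, n = 4 each; log2 fold change 0.32, 95% interval -0.16 to 0.80). Rank-knockout replicate 1 was the highest library, and without it the log2 fold change was 0.11.

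The ATP-Mg/phosphate carriers adjust the adenine nucleotide content of the matrix in response to calcium. Slc25a24 (ENSMUSG00000040322, chr3:109123149-109168457, plus strand) was at 67.1, 83.4, 103 and 119.8 CPM in WT replicates 1 to 4, and in Rank-knockout replicates 1 to 4 at 45.6, 60.4, 45.4 and 86.2 CPM. It was called lower (log2 fold change -0.64 ± 0.222, edgeR adjusted p = 0.0395) although the genotypes overlapped. The call was lost with raw library totals (-0.45, adjusted p = 0.125) and without the 50 most abundant genes (-0.51, adjusted p = 0.0860), and when any 1 of WT replicates 3 and 4 and Rank-knockout replicates 1 to 3 was left out, with values of -0.65 to -0.52. Slc25a25 was at 21.6 ± 4.71 CPM in the WT libraries and 21.5 ± 2.28 CPM in those of Rank-knockout (SD, n = 4 each), with a log2 fold change of 0.01 (95% interval -0.39 to 0.40), whose sign turned with RLE size factors and DESeq2. Slc25a23 had 58 counts over all libraries and was not tested.

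The uncoupling proteins lower the proton gradient or, for Ucp2, carry short organic acids. Ucp2 was the only one of the 3 with counts, at 81.5, 83.6, 84.0 and 73.9 CPM in WT replicates 1 to 4, and in Rank-knockout replicates 1 to 4 at 86.4, 64.9, 99.8 and 74.9 CPM. Its log2 fold change was 0.01 with a 95% interval of -0.30 to 0.32, and the sign turned with RLE size factors, DESeq2, limma-voom and the replicate block. Of its relatives, Slc25a14 had a log2 fold change of -0.04, with a sign that turned with raw library totals, without the 50 most abundant genes and with limma-voom, and Slc25a30 had 0.34, 0.19 without WT replicate 3 and 0.54 with raw library totals. Neither was called, and Slc25a27 had 66 counts and was not tested.

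Slc25a10 (ENSMUSG00000025792, chr11:120491840-120499187, plus strand), the dicarboxylate carrier that exchanges malate and succinate for phosphate, was called lower. It was at 219.9, 299, 221 and 258 CPM in WT replicates 1 to 4 and at 172, 196, 179 and 194 CPM in Rank-knockout, without overlap, a 1.35-fold fall (log2 fold change -0.44 ± 0.139, edgeR adjusted p = 0.0267). With raw library totals the log2 fold change was -0.24 (adjusted p = 0.179), without the 50 most abundant genes -0.31 (adjusted p = 0.0940) and with no filter -0.40 (edgeR adjusted p = 0.0751), and leaving out any 1 of WT replicates 2 and 4 and Rank-knockout replicates 1 and 3 also ended the call, at -0.45 to -0.34. The oxoglutarate carrier Slc25a11, a step of the malate-aspartate shuttle, had a log2 fold change of -0.24 (95% interval -0.53 to 0.05), -0.14 without Rank-knockout replicate 1, -0.11 without the 50 most abundant genes and -0.044 with raw library totals. The citrate carrier Slc25a1, which exports citrate for fatty acid synthesis, had -0.19 (95% interval -0.46 to 0.09), -0.059 without the 50 most abundant genes and 0.010 with raw library totals. Neither was called.

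Slc25a44 (ENSMUSG00000050144, chr3:88410498-88425139, minus strand) takes branched-chain amino acids into mitochondria. It was at 156, 109, 132 and 116 CPM in WT replicates 1 to 4 and at 76.0, 72.0, 67.0 and 59.3 CPM in Rank-knockout. The lowest WT library was well above the highest Rank-knockout library, with means of 128 ± 20.7 and 68.6 ± 7.20 CPM (SD, n = 4 each). The fitted fall was 1.86-fold (log2 fold change -0.89 ± 0.153, edgeR adjusted p = 0.00075). The aspartate-glutamate carriers of the malate-aspartate shuttle were not called: Slc25a13 (citrin) had a log2 fold change of -0.19, -0.37 to -0.042 with 1 library left out, and 0.0025 with raw library totals, and Slc25a12 (aralar) one of 0.54 (edgeR adjusted p = 0.123), and 0.74 with raw library totals, where it passed (edgeR adjusted p = 0.0355). Slc25a38, which takes up glycine for heme synthesis, had 0.36 and was not called, with 0.20 without WT replicate 2 and 0.56 with raw library totals.

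The value of the glutamate carrier Slc25a22 moved with single libraries and with the tool. It was at 28.1, 5.83, 43.7 and 47.3 CPM in WT replicates 1 to 4, of which replicate 2 was the lowest of all libraries, and at 22.5, 18.8, 21.1 and 13.4 CPM in Rank-knockout. With all libraries its log2 fold change was -0.64 (95% interval -1.72 to 0.44, edgeR adjusted p = 0.421), and without WT replicate 2 it was -1.08 and passed the test (edgeR adjusted p = 0.00176), the 3 remaining WT libraries being above all 4 Rank-knockout libraries. Without WT replicate 3 or 4 it was -0.41 and -0.36, and limma-voom with all libraries gave -0.071 (adjusted p = 0.936).

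Slc25a15 exchanges ornithine for citrulline and is 1 of the membrane steps by which enterocytes release citrulline. It was at 251, 314, 365 and 316 CPM in WT replicates 1 to 4, and in Rank-knockout replicates 1 to 4 at 196, 264, 209 and 266 CPM. The ranges overlapped, since Rank-knockout replicates 2 and 4 lay above WT replicate 1, and the log2 fold change of -0.42 ± 0.154 lay just outside the threshold (edgeR adjusted p = 0.0515). It passed with DESeq2 (adjusted p = 0.0459), with the replicate block (edgeR adjusted p = 0.0343) and without WT replicate 1 or Rank-knockout replicate 4. With raw library totals it was -0.22 (edgeR adjusted p = 0.262) and without the 50 most abundant genes -0.28 (edgeR adjusted p = 0.155). Slc25a29, a carrier of basic amino acids, had 45 counts and was not tested.

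Slc25a45 (ENSMUSG00000024818, chr19:5877808-5885878, plus strand), a relative of the carnitine/acylcarnitine carrier, was 1 of the more abundant carriers in WT. It was at 286, 394, 322 and 288 CPM in WT replicates 1 to 4 and at 121, 168, 175 and 211 CPM in Rank-knockout. The genotypes were apart in every library, with means of 323 ± 50.6 and 169 ± 37.0 CPM (SD, n = 4 each) and a log2 fold change of -0.94 ± 0.171 (edgeR adjusted p = 0.0011). Slc25a20, the carnitine/acylcarnitine carrier itself, through which long-chain fatty acids enter the matrix, was at 44.2 ± 9.87 CPM in the WT libraries and 30.4 ± 8.07 CPM in those of Rank-knockout (SD, n = 4 each). Its log2 fold change of -0.54 (95% interval -0.97 to -0.11) missed the threshold (edgeR adjusted p = 0.0717) and passed it with the replicate block and without Rank-knockout replicate 4. With raw library totals it was -0.34 (edgeR adjusted p = 0.232), and without Rank-knockout replicate 1 it was -0.37 (edgeR adjusted p = 0.217). Slc25a47, best known from liver, had 76 counts and was not tested.

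Slc25a39 and Slc25a40 import glutathione. Slc25a39 was the abundant form, at 258 ± 72.2 CPM in the WT libraries and 244 ± 27.2 CPM in those of Rank-knockout (SD, n = 4 each), with a log2 fold change of -0.09 (95% interval -0.43 to 0.25), and 0.11 with raw library totals and 0.038 without the 50 most abundant genes. Slc25a40 had 0.25 (95% interval -0.23 to 0.73), 0.066 without WT replicate 3, 0.42 without WT replicate 2 and 0.45 with raw library totals. Neither was called.

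The mitoferrins bring iron into mitochondria for heme and iron-sulfur clusters. Slc25a37 was at 451, 527, 289 and 534 CPM in WT replicates 1 to 4, and in Rank-knockout replicates 1 to 4 at 179, 378, 356 and 324 CPM. WT replicate 3 was below 3 of the Rank-knockout libraries, while the other WT libraries were above all of them, and the log2 fold change of -0.55 (95% interval -1.01 to -0.09) was not called (edgeR adjusted p = 0.094). It passed with all libraries and no filter on low counts (-0.51, edgeR adjusted p = 0.0128), and without WT replicate 3 (-0.72, edgeR adjusted p = 0.0282), and was -0.35 without Rank-knockout replicate 1 (edgeR adjusted p = 0.200) and -0.36 with raw library totals (edgeR adjusted p = 0.249). Slc25a28, the second mitoferrin, had a log2 fold change of 0.43 (edgeR adjusted p = 0.208), 0.195 without WT replicate 2 and 0.65 without WT replicate 3.

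Of the carriers without a settled substrate, Slc25a34 had a log2 fold change of -0.63 and was not called, with -0.96 without WT replicate 2 and -0.415 without WT replicate 4. Slc25a46, which sits in the outer membrane and takes part in mitochondrial fusion and fission, was at 105 ± 18.8 CPM in the WT libraries and 104 ± 7.18 CPM in those of Rank-knockout (SD, n = 4 each), with a log2 fold change of -0.02 whose sign turned with raw library totals, without the 50 most abundant genes and with no filter. Slc25a35 and Slc25a53 had 47 and 38 counts and were not tested.

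**Figure D3:**
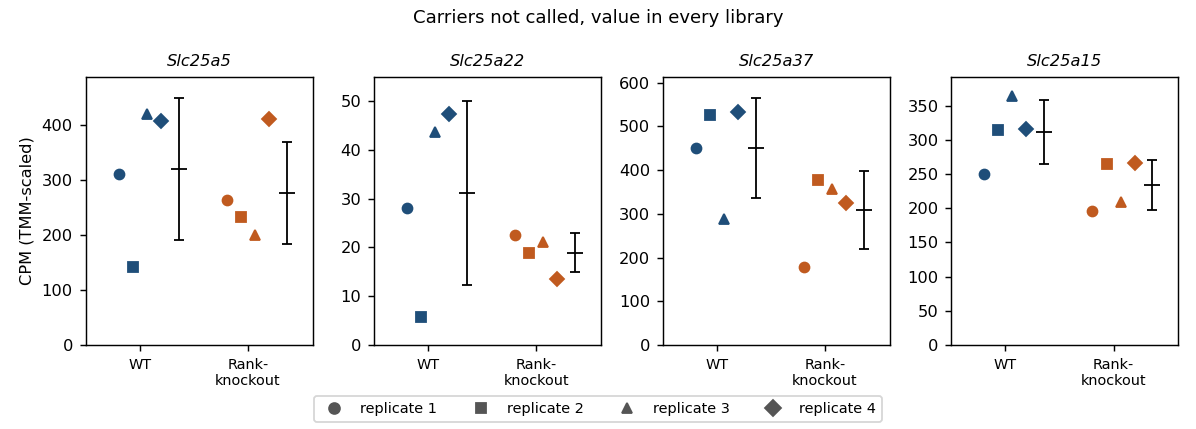
CPM (TMM-scaled, linear axes from 0) of 4 carriers that were not called, in each library, with WT in blue, Rank-knockout in orange, replicates by symbol, and a bar for the mean ± SD (n = 4). WT replicate 2 is the lowest library for Slc25a5 and Slc25a22, WT replicate 3 is the lowest WT library for Slc25a37, and for Slc25a15 the genotypes overlap at 251 to 266 CPM.

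Carriers of the same kind of substrate were also compared by the share 1 of them held of the counts of both, which does not depend on library scaling. None of 7 shares passed an exact two-sided permutation test over the 70 assignments of the libraries, whose smallest possible p is 0.029, and the genotypes overlapped in all 7. The share of Slc25a25 among Slc25a24 plus Slc25a25 was 22.2, 18.4, 16.1 and 19.3% in WT replicates 1 to 4 and 29.0, 27.8, 31.3 and 21.4% in Rank-knockout. It averaged 19 ± 2.53% against 27.4 ± 4.25% (SD, n = 4 each, exact p = 0.0571, adjusted over 7 pairs 0.300). Slc25a13 held 89.2 ± 2.6% of its pair with Slc25a12 in the WT libraries and 82.5 ± 5.77% in those of Rank-knockout (SD, n = 4 each, exact p = 0.0857, adjusted 0.300). Slc25a37 held 94.6 ± 3.49% and 90.4 ± 4.31% of the mitoferrin counts (SD, n = 4 each, exact p = 0.171, adjusted 0.399). Without Rank-knockout replicate 1 the difference was -4.18 in place of -6.70 percentage points for Slc25a13 and -2.16 in place of -4.26 for Slc25a37.

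The other 4 shares differed by less. Slc25a4 held 4.67 ± 2.95% of the ADP/ATP carrier counts in the WT libraries and 5.85 ± 2.21% in those of Rank-knockout (SD, n = 4 each, exact p = 0.514). WT replicate 2, with 9.09%, was the highest of all 8 libraries, and without it the difference was 2.65 in place of 1.18 percentage points, beside 0.542 to 2.01 without any 1 of the others. Slc25a39 held 92.7% and 90.7% of its pair with Slc25a40, Slc25a33 4.68% and 5.92% of its pair with Slc25a36, and Slc25a23 2.26% and 5.22% of its pair with Slc25a24, with exact permutation p = 0.343, 0.343 and 0.257. For Slc25a23 the Rank-knockout mean rested on replicate 3, with 11.4%, and without it the difference was 0.903 in place of 2.96 percentage points. With 1 library left out, the difference for Slc25a33 ran from 0.629 to 2.01 and that for Slc25a39 from -3.00 to -0.805 percentage points. The more abundant form of each pair was thus the same in both genotypes.

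**Figure D4:**
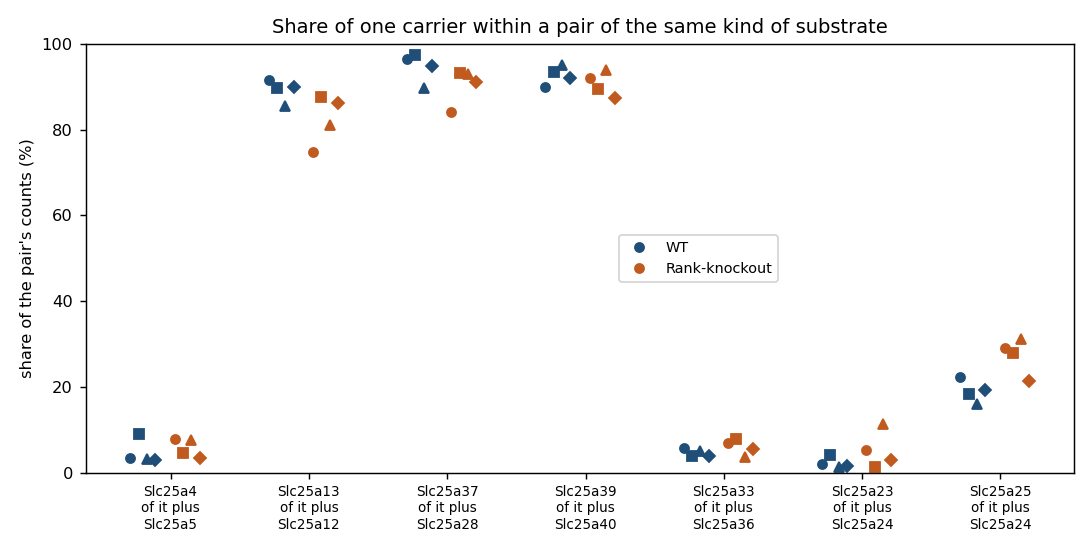
Percent of a pair's counts held by the first gene named, in each library (WT in blue, Rank-knockout in orange, replicates 1 to 4 by circle, square, triangle and diamond). The genotypes overlap in all 7 pairs, and the share of Slc25a25 runs from 16.1 to 22.2% in WT and from 21.4 to 31.3% in Rank-knockout.

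The 50 carrier genes lay on 19 chromosomes, with 5 on chromosome 11 and 4 on the X chromosome. Of 5 pairs of neighbouring carriers, the closest had few counts in both members, with Slc25a29 (45 counts) 162 bases from Slc25a47 (76 counts) on chromosome 12. The others paired genes of unequal level. On chromosome 17, Slc25a41 (0 counts) lies 2056 bases from Slc25a23 (58 counts), itself a gene of few counts. Slc25a24 (1562 counts) lies 6461 bases from Slc25a54 (0 counts) on chromosome 3, Ucp2 (1769 counts) lies 6904 bases from Ucp3 (0 counts) on chromosome 7, and Slc25a5 (6095 counts) lies 18448 bases from Slc25a43 (17 counts) on the X chromosome.

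Of 27 other transport genes of mitochondria, 23 were tested, 4 were higher and 2 were lower (17.4% and 8.70%, beside 15.8% and 14.6% of all genes), and 9 and 1 with raw library totals (beside 26.0% and 8.72% of all genes). The genes that place carriers in the inner membrane all had positive log2 fold changes (9 of 9 tested), and 3 of them rose: Tomm40, the channel of the outer membrane, at 1.28, and Timm10 and Timm9, the chaperones that guide carriers between the membranes, at 1.01 and 0.96. Sfxn2, a sideroflexin, rose by 0.90 on the log2 scale. Sfxn1, the mitochondrial serine transporter, fell by 0.62 and Abcb10, an inner membrane transporter linked to heme, by 0.55. Only 1 gene of this list was called lower with raw library totals, and when any 1 of WT replicates 1, 3 and 4 and Rank-knockout replicates 2 and 3 was left out.

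Of 39 enzymes and regulators on either side of the carriers, 36 were tested, 10 were higher (27.8%) and 7 were lower (19.4%), beside the same 15.8% and 14.6%. With raw library totals 13 were higher and 3 lower (beside 26.0% and 8.72% of all genes). Without the 50 most abundant genes in the library sizes, 12 were higher and 4 lower (beside 22.0% and 10.3%). Without WT replicate 1, WT replicate 4 or Rank-knockout replicate 3 the number higher was 4, 5 and 5, and the number lower was 4 when WT replicate 1, WT replicate 3, WT replicate 4 or Rank-knockout replicate 3 was left out. Beside the called rise of the folate carrier Slc25a32, all 3 one-carbon enzymes of the matrix on the list rose, Shmt2 at 1.10, Mthfd2 at 0.90 and Mthfd1l, which was added to the named genes after its value was seen, at 0.80. Beside the lower Slc25a45 and the uncalled Slc25a20, the carnitine acyltransferases Crot and Crat fell by 1.17 and 0.71 on the log2 scale, and Cpt1a and Cpt2 were not called. Around the citrate carrier Slc25a1, which was not called, the citrate-cleaving enzyme Acly rose by 0.82 and the cytosolic malate dehydrogenase Mdh1 fell by 0.60. Cps1, which makes carbamoyl phosphate for the citrulline that Slc25a15 exports, rose by 0.76. Ppargc1a, a coactivator of mitochondrial genes, fell by 0.93, and of the 6 tested regulators on the list 1 was higher and 1 lower. How these genes bear on the carriers was not tested.

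Slc25a36, Slc25a45, Slc25a44 and Slc25a51 were called lower under all 16 other settings tried, which were the 8 other processing choices and the 8 sets with 1 library left out. Their log2 fold changes ran from -1.08 to -0.79, -1.07 to -0.74, -0.98 to -0.70 and -0.75 to -0.49. In each the value closest to 0 came from raw library totals. Slc25a24, Slc25a3, Slc25a10 and Slc25a32 each kept their direction under all of these settings and lost their call under at least 1.

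**Figure D5:**
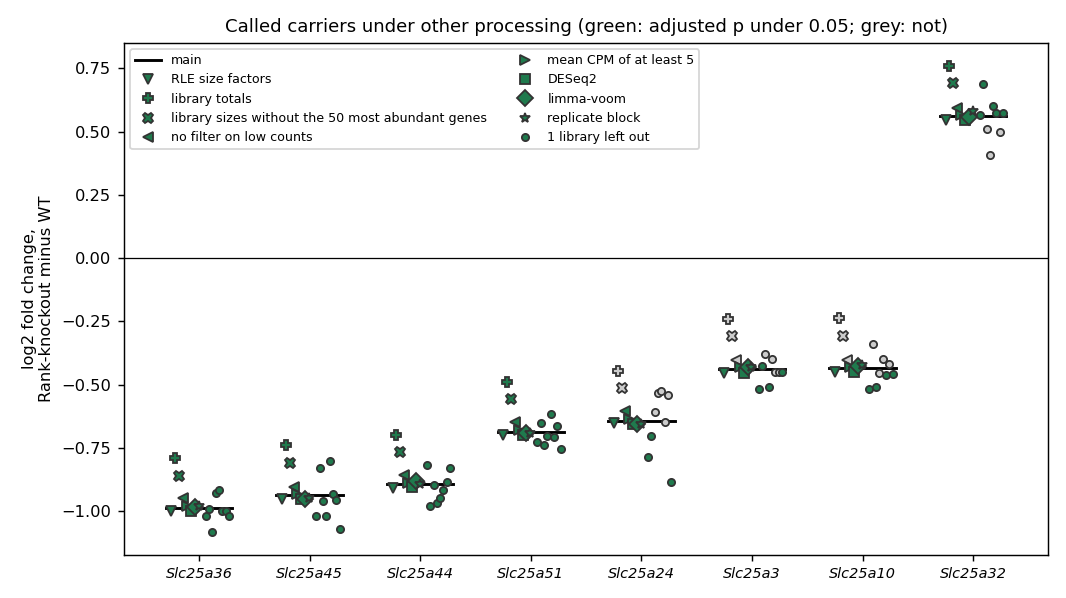
Log2 fold change (Rank-knockout minus WT) of the 8 called carriers under each setting, with a black line for the value reported, symbols for other processing and circles for 1 library left out. Green symbols pass an adjusted p under 0.05 and grey ones do not: all symbols of Slc25a36, Slc25a45, Slc25a44 and Slc25a51 are green, and the other 4 carriers each have grey ones.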

How the data were processed

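Intestinal epithelial cells of 4 WT and 4 Rank-knockout mice at lactation day 5 were profiled by 3′ mRNA-seq (QuantSeq, single reads). The authors used BBDuk to trim reads, bowtie2 to discard abundant sequences, STAR to align the rest to GRCm38 and featureCounts, set to the sense strand, to assign them to genes, and deposited the raw counts without normalization. The labels name each sample as a mouse of its genotype, and molecular identifiers are not mentioned, so the limit that a count of 0 allows covers counting error only.

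Genes were filtered with filterByExpr, scaled by TMM and tested with edgeR 4.0.16 (R 4.3.3, quasi-likelihood F-test, robust, genotype as the only term), with Benjamini-Hochberg adjustment over 9855 genes and a threshold of 0.05. Standard errors came from the F statistic, and 95% intervals are 1.96 SE and include the spread between mice. Pair shares were tested by exact permutation in Python 3.11.15. The fit was tested on simulated data. Alternatives were other tools (DESeq2 1.42.0 and limma 3.58.1 with voom), other scalings (RLE size factors, raw library totals, and sizes that leave out the 50 most abundant genes), other filters (none, or a mean CPM of 5 or more), a block for the replicate number, and each library left out in turn. Symbols and positions came from GENCODE M21.

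Every carrier with 20 or more counts is named with its log2 fold change where tested, except 1 that is not reported here. Values in every library are given for the 5 most abundant by mean CPM over both genotypes and, among called carriers with a mean CPM of at least 10, up to 6 with the largest changes each way, with Slc25a10, Slc25a22, Slc25a42 and Ucp2 added after their values were seen. Of the other lists, up to 4 called genes each way with the smallest p are named. The members and lists were chosen with earlier results of these data known. Rank itself was not used as a check of the genotype, since 3′ tags lie at the end of the transcript and need not fall in the deleted part.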

Additional observations from a re-analysis of the deposited data

Results flagged for a closer look

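In groups of 4 libraries, a library whose gap to the nearest other library took up more of its group's whole range than Dixon's 95% critical value was singled out. Among 94 such sets, 4 met this, and chance would give about 1 in 20, or 4.70. Slc25a3 in Rank-knockout replicate 1 was at 751 CPM, against 826 to 832 CPM in the other Rank-knockout libraries. Slc25a25 in WT replicate 4 was at 28.6 CPM, against 18.8 to 19.8 CPM in the other WT libraries. Slc25a29 in Rank-knockout replicate 1 was at 2.12 CPM, against 2.63 to 2.7 CPM. The share of Slc25a4 in the counts of Slc25a4 plus Slc25a5 was 9.09% in WT replicate 2, against 3.02% to 3.42% in the other WT libraries.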

How the results depend on the processing

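The counts of called carriers depended on scaling and on single libraries. The number higher, 1, was 3 with raw library totals, 2 without the 50 most abundant genes, 2 with the replicate block, and 0 to 2 with 1 library left out. The number lower, 7, was 4 with raw library totals and 4 without the 50 most abundant genes, and ran from 4 to 9 with 1 library left out. The median log2 fold change of tested carriers, -0.14, was 0.060 with raw library totals, -0.010 without the 50 most abundant genes and 0.010 with no filter, where 45 carriers were tested, and -0.22 to -0.09 with 1 library left out. Of the other transport genes, 9 were higher and 1 lower with raw totals, beside 26.0% and 8.72% of all genes. Without the 50 most abundant genes 6 were higher and 1 lower, beside 22.0% and 10.3% of all genes. With 1 library left out, 4 to 5 were higher and 1 to 3 lower. Of the 36 tested enzymes and regulators, 13 were higher and 3 lower with raw totals. Without the 50 most abundant genes 12 were higher and 4 lower, both beside the same shares of all genes. With 1 library left out, 4 to 10 were higher and 4 to 9 lower. No pair share was past its threshold under any setting, but a single pair could not pass after adjustment over the 7 pairs. With 1 library left out the exact p cannot go below 0.057 and with the block not below 0.125.

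Signs that turned were all of carriers not called. With raw library totals they were 0.010 for Slc25a1, 0.0025 for Slc25a13, 0.16 for Slc25a14, 0.11 for Slc25a39 and 0.18 for Slc25a46. Without the 50 most abundant genes they were 0.091 for Slc25a14, 0.038 for Slc25a39 and 0.11 for Slc25a46, and with no filter 0.010 for Slc25a46. With limma-voom they were 0.012 for Slc25a14 and -0.013 for Ucp2, with RLE size factors -0.0042 for Slc25a25 and -0.0046 for Ucp2, and with DESeq2 -0.0032 and -0.0056. With 1 library left out the ranges were -0.21 to 0.18 for Slc25a14, -0.15 to 0.82 for Slc25a16, -0.077 to 0.13 for Slc25a25, -0.23 to 0.12 for Slc25a39, -0.14 to 0.038 for Slc25a46 and -0.097 to 0.10 for Ucp2.

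The replicate numbers are shared between the genotypes. Deviations of same-numbered libraries from their genotype means correlated at 0.0517, 0.153, -0.139 and 0.323, against -0.353 to 0.249 for libraries of different number. The highest value was thus that of a shared number, but WT replicate 2 correlated better with Rank-knockout replicate 3 (0.249) than with its own number. The numbers were not taken as pairs, although these values do not settle the question. With the replicate block 9 carriers were lower and 2 higher, beside 16.3% and 17.3% of all genes, adding Slc25a15 (-0.41, edgeR adjusted p = 0.0343) and Slc25a20 (-0.56, edgeR adjusted p = 0.0218) to those lower, and Ucp2 was at -0.0082. The cause of these changes was not tested. Depth limits the carriers with few counts: 6 with 20 or more counts were not tested.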
